A study of Mus musculus with 2 samples.

Results

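CD8 T cells carrying interferon-stimulated transcripts made up 141 of 4131 CD8 barcodes (3.41%, exact 95% interval 2.88 to 4.01%) in B16 melanoma tumours, and 4131 of the 11318 barcodes past the quality filter met the CD8 gate. A member was a barcode with at least 500 genes, at most 25% mitochondrial counts, Cd8a or Cd8b1 at 5 or more counts, Cd4, Csf1r and Adgre1 below 5, Mlana below 10, and at least 2 of Ifit1, Ifit3, Rsad2 and Mx1 at 5 or more. The comparison cells were the 3115 CD8 barcodes of the same gate with all 4 of these genes at 0. The cells came from a single capture of CD3-selected cells taken from subcutaneous B16F10 tumours, a transplantable mouse melanoma line, 14 days after 1000000 tumour cells were given per mouse. Nr4a knockout (KO) and wild-type (WT) cells had been stained with hashtag antibodies and pooled, and about 20000 cells were loaded. The series title names Nr4a1 and Nr4a2 as the deleted genes; the driver of the deletion and the number of mice are not given in the sources used here. Since no label ties a hashtag to a genotype, KO and WT cells could not be set against each other, and with 1 capture no value below carries a p-value.

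Type I interferons are cytokines made when cells sense viral or misplaced nucleic acid. They bind the receptor chains Ifnar1 and Ifnar2, whose kinases Jak1 and Tyk2 activate a complex that includes Stat2 and Irf9, which binds interferon-stimulated response elements and turns on a broad set of antiviral genes. Interferon gamma, a product of activated T cells, acts through a receptor of its own on a partly shared set that includes guanylate-binding proteins and the class I presentation machinery.

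The 4 genes that chose the members encode Ifit1 and Ifit3, which bind viral RNA, Rsad2 (viperin), an enzyme that makes a chain-terminating nucleotide, and Mx1, a dynamin-like antiviral GTPase. Of these, 3 had an entry among the RefSeq promoter windows, and each held the core of the response element, which is GAAA, 2 bases of any kind and GAAA again, searched on both strands with overlapping matches counted. The windows of these genes, of Isg15, the called gene of the other type I list with the highest ratio in all cells, and of Stat2, a called transcription factor, are shown as examples of windows that hold it; other called genes lacked it, as counted further on. Each sequence is from RefSeq (GRCm38.p6), runs from 250 to 31 bases before the gene's start, 5′ to 3′ on the gene's strand, and has the motif or its reverse complement in capitals.
Ifit1, chr19:34640639-34640858, plus strand: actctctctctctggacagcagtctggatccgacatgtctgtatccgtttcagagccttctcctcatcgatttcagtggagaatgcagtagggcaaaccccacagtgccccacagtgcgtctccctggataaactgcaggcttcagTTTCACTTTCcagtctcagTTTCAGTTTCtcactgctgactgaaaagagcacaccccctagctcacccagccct
Ifit3, chr19:34583279-34583498, plus strand: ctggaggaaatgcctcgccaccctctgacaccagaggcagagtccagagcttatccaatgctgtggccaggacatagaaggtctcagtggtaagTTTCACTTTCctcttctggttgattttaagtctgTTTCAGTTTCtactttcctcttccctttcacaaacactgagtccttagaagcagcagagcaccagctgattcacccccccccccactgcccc
Rsad2, chr12:26456483-26456702, minus strand: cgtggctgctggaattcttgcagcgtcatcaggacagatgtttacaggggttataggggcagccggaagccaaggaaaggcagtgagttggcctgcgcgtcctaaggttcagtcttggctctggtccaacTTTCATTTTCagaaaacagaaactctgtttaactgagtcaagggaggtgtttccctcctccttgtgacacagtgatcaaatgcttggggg
Isg15, chr4:156200849-156201068, minus strand: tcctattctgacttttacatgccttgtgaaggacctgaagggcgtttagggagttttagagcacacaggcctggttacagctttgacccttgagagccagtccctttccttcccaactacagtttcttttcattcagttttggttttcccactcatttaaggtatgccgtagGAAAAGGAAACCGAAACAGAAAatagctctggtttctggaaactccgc
Stat2, chr10:128270248-128270467, plus strand: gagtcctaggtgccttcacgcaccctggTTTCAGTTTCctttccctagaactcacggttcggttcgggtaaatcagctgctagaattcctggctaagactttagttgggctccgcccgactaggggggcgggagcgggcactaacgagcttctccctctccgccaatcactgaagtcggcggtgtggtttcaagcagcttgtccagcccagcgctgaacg
Ifit1 carried the motif 104 to 95 and 85 to 76 bases before its start. Ifit3, a neighbour in the Ifit cluster of chromosome 19, carried it at 156 to 147 and 122 to 113 bases. Rsad2 carried 1 motif, 120 to 111 bases before its start. Isg15 carried 3 overlapping motifs between 78 and 57 bases before its start. A match describes the letters of the window and no binding was measured.

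Among members, Ifit1 lay at 0 to 192 counts per cell (median 16) and reached 5 counts in 119 of 141 cells. Ifit3 lay at 0 to 87 counts (median 11) and reached 5 in 96 cells. Rsad2 had 0 to 1141 counts (median 5) and reached 5 in 72 cells, and 1 cell held 32.7% of all its counts. Mx1 had 0 to 148 counts (median 5) and reached 5 in 77 cells. These values made the rule and are a description. The commonest pattern was Ifit1 with Ifit3 alone (29 cells), then all 4 genes (21 cells) and Ifit1 with Mx1 (18 cells), and Rsad2 with Mx1 without the Ifit genes was found in 6. Just outside the rule, 447 CD8 barcodes had 1 of the 4 genes at 5 or more and 428 had counts below 5 only, and just inside it 80 members had exactly 2.

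The T cell label held in both arms. Trac, which encodes the T cell receptor alpha constant region, was at 5 or more counts in 89.4% of members and 87.3% of comparison cells. Cd3d, a CD3 subunit, was in 84.4% of members and 81.3% of comparison cells. In melanoma barcodes without Cd8a, Cd8b1 or Cd4, which should lack both, Trac was in 7.69% and Cd3d in 5.35% at a median of 150604 counts per cell, against a median of 34440 counts in members and 25768 in comparison cells. All 15 T cell receptor and CD3 genes were tested and 0 were called, with a median log2 ratio of -0.05. Calls are defined below, and 1.4% of all tested genes were called higher and 0.331% lower.

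Depth and other cell types moved with membership. The share of members was 2.71% in the shallowest of 4 equal bins of CD8 barcodes by depth, then 2.91%, 3.39% and 4.65% in the deepest. At least 2 markers of another cell type at 5 or more counts were found in 44 of 141 members (31.2%, interval 23.7 to 39.5%) and 484 of 3115 comparison cells (15.5%, interval 14.3 to 16.9%). Dendritic cell markers, 11 genes, accounted for 31 of these members (21.99%) and 195 comparison cells (6.26%), with a summed level of 2910 CPM (counts of a gene over all counts of the arm, scaled to 1000000) in members and 397 CPM in comparison cells, and 1 marker at 0 in members. The 12 macrophage or monocyte markers summed to 736 CPM in members and 164 CPM in comparison cells, with none at 0. NK cell markers, 6 genes, summed to 478 CPM in members and 135 CPM in comparison cells, with 3 at 0 in members. At least 2 of them were in 14.2% of members and 2.89% of comparison cells. Fcer1g alone had 321 CPM in members and 56.3 CPM in comparison cells. Eomes was lower, with 43.8 CPM in members and 53.8 CPM in comparison cells. The sum in members thus rested mostly on Fcer1g, and whether NK cells were its source was not tested. NK cell markers were not among the lists used to mark barcodes. Melanoma markers, 8 genes, summed to 180 CPM in members and 194 CPM in comparison cells, with at least 2 in 12.8% of members and 7.54% of comparison cells. With barcodes holding markers of another cell type left out, 97 members and 2631 comparison cells remained. Dendritic cell markers then summed to 149 CPM in members and 115 CPM in comparison cells, and macrophage markers to 93.8 CPM in members and 76.4 CPM in comparison cells. Both sums fall by construction, since barcodes were left out for these same markers. NK cell markers summed to 143 CPM in members and 112 CPM in comparison cells. Among them, Fcer1g then had 67.3 CPM in members and 44.6 CPM in comparison cells. Values without these barcodes are given for the gene groups and the leading genes, and beyond them the part of such RNA in the results was not tested. The same rule of 2 genes applied to other gates marked 18.2% of macrophage barcodes and 16.2% of melanoma barcodes, which are deeper, and 2.52% of CD4 barcodes. After every cell was thinned to 10000 counts, it marked 1.62% of CD8 barcodes, 1.29% of CD4, 2.20% of macrophage and 1.80% of melanoma barcodes, so none of these gates lacked the transcripts.

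Counts were summed over members and over comparison cells and set against each other as a log2 ratio of CPM with 5 CPM added to each. A gene was called at a 2-fold difference where no single cell held over 10% of the counts of the higher arm. Of 6645 genes tested, 93 were called higher in members (1.4%) and 22 lower (0.331%), and the median log2 ratio over all tested genes was -0.06. Of the 93, 57 were on one of the interferon lists, 3 of them rule genes, and 36 were on none. All of these genes were measured in the same cells that the rule used, so the counts are a description of the members.

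Other type I interferon-stimulated genes were higher in members as a group. Of 85 listed genes, 83 were in the table and 72 were tested; 42 of the 72 were called higher, 0 lower, and 14 more were 2-fold higher with over 10% of counts in 1 cell, against 1.4% of all tested genes called higher and 3.27% that were 2-fold higher whatever the share of 1 cell. All 72 had a log2 ratio above 0, as did 43.1% of all tested genes, and their median was 1.54 against -0.06 over all tested genes. Their summed level was 18725 CPM in members and 8115 CPM in comparison cells. Without barcodes holding markers of another cell type, 24 of 69 tested were called higher, where 1.15% of all genes were, and 30 more were 2-fold higher with over 10% of counts in 1 cell, where 2.66% of all genes were 2-fold higher whatever that share. There 67 of 69 were above 0, as were 47.6% of all genes, and the median was 1.74. With every cell thinned to 10000 counts, 31 of 49 tested were called higher, against 3.16% of all genes. A gene was tested on its mean share over both arms, so 18 of the 72, Usp18, Cmpk2, Dhx58, Ddx60 and Rtp4 among them, entered through members alone and had to differ in share. Of the 54 that also reached 5% of comparison cells, 35 were called higher, against 1.23% of all such genes, and their median was 1.39.

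The antiviral effectors had a median log2 ratio of 1.92. Beside the counts of this and the following subsets of the list, 1.4% of all tested genes were called higher. That share was 1.15% without barcodes holding markers of another cell type. These subsets include genes that entered the test through members alone, such as Rtp4, Dhx58 and Usp18. They were not counted again without such genes. Isg15, a ubiquitin-like modifier that is conjugated to viral and host proteins, had 0 to 184 counts per member (median 6) and 0 to 49 per comparison cell (median 0). It was at 5 or more counts in 55.3% of members and 7.61% of comparison cells, and its level of 359 CPM in members, against 29.4 CPM in comparison cells, gave a log2 ratio of 3.40 (3.27 without barcodes holding markers of another cell type). Most comparison cells had no Isg15 read (2587 of 3115), while 40 of the 141 members also had none, so the arms overlapped. Ifit2, an RNA-binding relative of Ifit1, had 283 CPM in members and 23.9 CPM in comparison cells, a log2 ratio of 3.32 (2.98 without those barcodes, not called). Rtp4, a chaperone of receptors that also binds viral RNA, had 176 CPM in members and 19.4 CPM in comparison cells, a log2 ratio of 2.89 (3.14 without them), and was present in 43.3% of members and 4.69% of comparison cells. Most comparison cells had no read of either gene, and 76 members had no Ifit2 read. Ifit1bl1, another gene of the Ifit cluster, reached a log2 ratio of 2.82, and Ddx60, a helicase, 2.13; without those barcodes they stood at 3.18 and 2.24 and were not called. Xaf1, a pro-apoptotic protein, had 166 CPM in members and 40.4 CPM in comparison cells, a log2 ratio of 1.92. In all, 15 of 23 tested effectors were called higher and 6 more were held back by 1 cell, and without those barcodes 10 of 22 were called and 10 more were held back (median 2.01). Among those 6 were Oasl1, an inhibitor of Irf7 translation, and Ifitm3, which blocks entry of viruses from endosomes. Oasl1 had a log2 ratio of 4.05 in all cells and 1.29 without barcodes holding markers of another cell type, and Ifitm3 3.43 and 1.23. Cmpk2, a mitochondrial nucleotide kinase and the neighbour of Rsad2 on chromosome 12, had 144 CPM in members and 6.09 CPM in comparison cells and was called higher without those barcodes (3.49), where no cell held over 10% of its counts. Ifi27 (0.20) was among the effectors below a 2-fold ratio. Counting could split reads between the near copies Ifit3 and Ifit3b and within the Ifit, Slfn, Trim30, Gbp and Tgtp families, so values of single members of these families are uncertain.

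**Figure D1:**
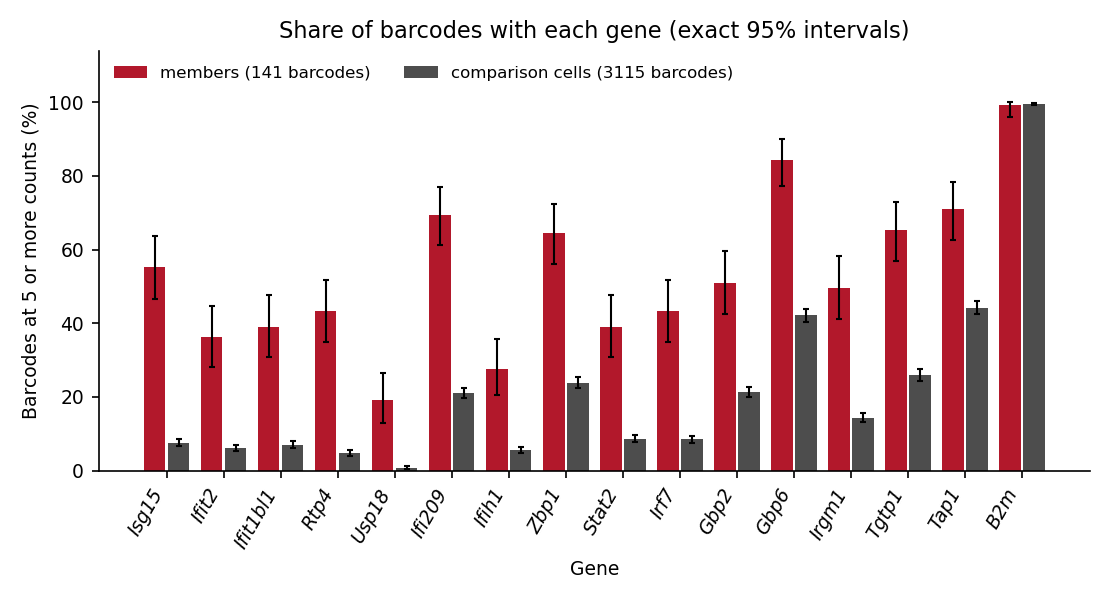
Share of barcodes at 5 or more counts (y axis, percent) for leading interferon-related genes (x axis), with members in red left of comparison cells in grey and exact 95% binomial intervals. Isg15 stood at 55.3% of members and 7.61% of comparison cells, while B2m was in nearly every cell of both arms.

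Sensors of nucleic acid were higher as well. Of 10 tested, 6 were called and the other 4 exceeded 2-fold with over 10% of counts in 1 cell (median log2 ratio 2.09). Dhx58, one of the 10, had entered the test through members alone. Without barcodes holding markers of another cell type, 4 of 9 were called and the other 5 exceeded 2-fold (median 1.86). Ifih1 (MDA5), a sensor of long double-stranded RNA, had 102 CPM in members and 21.7 CPM in comparison cells, a log2 ratio of 2.00. Ddx58 (RIG-I), a sensor of RNA ends, had 88.1 CPM in members and 31.3 CPM in comparison cells (1.36). Dhx58 (LGP2), their regulator, reached 2.19, and 2.50 without those barcodes, where it was not called. Ifi209, of the DNA-binding family with pyrin and HIN domains, had 0 to 169 counts per member (median 13) and 0 to 79 per comparison cell (median 0), and 465 CPM in members against 92.8 CPM in comparison cells gave a log2 ratio of 2.27. Its relatives Ifi203 (1.55) and Mndal (1.28) were called with lower ratios. All 3 of these genes were called with and without those barcodes.

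Enzymes of ubiquitin, ISG15 and ADP-ribose transfer were called in 10 of 16 tested genes (median 1.37), and in 5 of 15 without barcodes holding markers of another cell type (median 1.70). A further 2 in all cells and 8 without those barcodes were 2-fold higher with over 10% of counts in 1 cell. Usp18, which removes ISG15 from proteins and blocks Ifnar2 signalling, was sparse but the most unequal of them, with 72.4 CPM in members and 2.92 CPM in comparison cells, a log2 ratio of 3.29 (3.35 without those barcodes, not called). It was at 5 or more counts in 19.1% of members and 0.803% of comparison cells, and 100 of 141 members had no read of it. Trim30d reached 2.08, Trim30a 1.72 and Trim25, the ligase that activates RIG-I, 1.77. Parp9 (1.53) and Dtx3l (1.46), partners in ADP-ribosylation and ubiquitination, and Parp14 (1.58) were also called. Uba7 (0.83), the E1 enzyme for ISG15, and Ube2l6 (1.19, with 11.7% of its counts in 1 cell), the E2 enzyme, were not called. Among the nuclear body and remaining genes, 11 of 23 were called (median 1.20), and 5 of 23 without those barcodes (median 1.05). In this group 2 more in all cells and 7 more without those barcodes were held back by 1 cell. Daxx (2.22, and 2.65 without those barcodes, not called) and Pml (1.62) belong to nuclear bodies, and Slfn8 (2.35) and Slfn1 (1.87) to the Schlafen family. Ly6e (0.34), Ms4a6b (0.44) and Sp110 (0.51) were the lowest of this group. Such low ratios stood beside high shares in comparison cells, where Ly6e was in 71.5% and Ms4a6b in 68.8% of cells.

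Interferon-induced GTPases, which attack the vacuoles of intracellular microbes, were called higher in 11 of 15 tested of 17 listed, and all 15 were above 0 (median 1.36, range 0.93 to 1.88). Their sum was 3809 CPM in members and 1506 CPM in comparison cells. Among all tested genes, 1.4% were called higher and 43.1% were above 0. Gbp2, a guanylate-binding protein, had 355 CPM in members and 107 CPM in comparison cells (1.68). Gbp6 was in 84.4% of members and 42.2% of comparison cells, with a log2 ratio of 1.25. The immunity-related GTPases Irgm1 (1.69) and Irgm2 (1.55) and the pair Tgtp1 (1.39) and Tgtp2 (1.36) were called, while Iigp1 (1.88) and Gbp5 (1.80) had over 10% of counts in 1 cell. Gbp3 (0.99) and Gbp7 (0.93) lay just under the 2-fold limit. Without barcodes holding markers of another cell type, 11 of 15 were called, where 1.15% of all genes were called higher, and the median was 1.49.

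Of 11 transcription factors tested, 1 was called in all cells, 2 of 11 without barcodes holding markers of another cell type and 3 of 10 after thinning. Over all genes, 1.4%, 1.15% and 3.16% were called higher in the same order, and 0.331% lower in all cells. Stat2 was the factor called in all cells, with 0 to 38 counts per member (median 3) and 0 to 46 per comparison cell (median 0). Its level was 132 CPM in members and 34.5 CPM in comparison cells, a log2 ratio of 1.80 (1.89 without those barcodes). Irf7, which drives interferon alpha genes, had 210 CPM in members and 32.3 CPM in comparison cells, a log2 ratio of 2.53, and 1 cell held 10.2% of its counts in members; without those barcodes its ratio was 2.04 and it was in 33.0% of members and 8.21% of comparison cells. Irf9, the DNA-binding partner of Stat2, had a log2 ratio of 0.47, and Irf1, an early target of interferon gamma, 0.14. Of the 6 receptor chains and kinases tested 0 were called, and their ratios lay between -0.14 for Ifngr1 and 0.48 for Ifnar2. Among 7 negative regulators 0 were called, with Cish at 0.75, Socs1 at 0.46 and Pias1 at -0.80. Of the ligands, Ifng alone was tested, with 513 CPM in members and 451 CPM in comparison cells (0.18). Of the 10 listed ligands 7 were in the table, and together they had 514 CPM in members and 451 CPM in comparison cells. Ifna2, Ifna4, Ifna5, Ifnk and Ifnl2 had 0 counts in both arms, which allows up to 3 counts in each. Another ligand in the table was not tested and is not among those at 0.

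Class I presentation differed by less. Of 21 genes tested 0 were called and 19 had a log2 ratio above 0, with a median of 0.32. Among all tested genes, 1.4% were called higher, 0.331% lower and 43.1% were above 0. B2m, the invariant chain of class I molecules, had 3 to 1235 counts per member and 0 to 1283 per comparison cell, at 7966 CPM in members and 5956 CPM in comparison cells, a log2 ratio of 0.42. The highest were Tapbp (tapasin, 0.87), which loads peptides, the nonclassical chain H2-T22 (0.80) and Tap1 (0.66), a chain of the peptide transporter. Without barcodes holding markers of another cell type, Tapbp (1.10) and H2-T22 (1.01) passed the limit, where 1.15% of all genes were called higher.

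**Figure D2:**
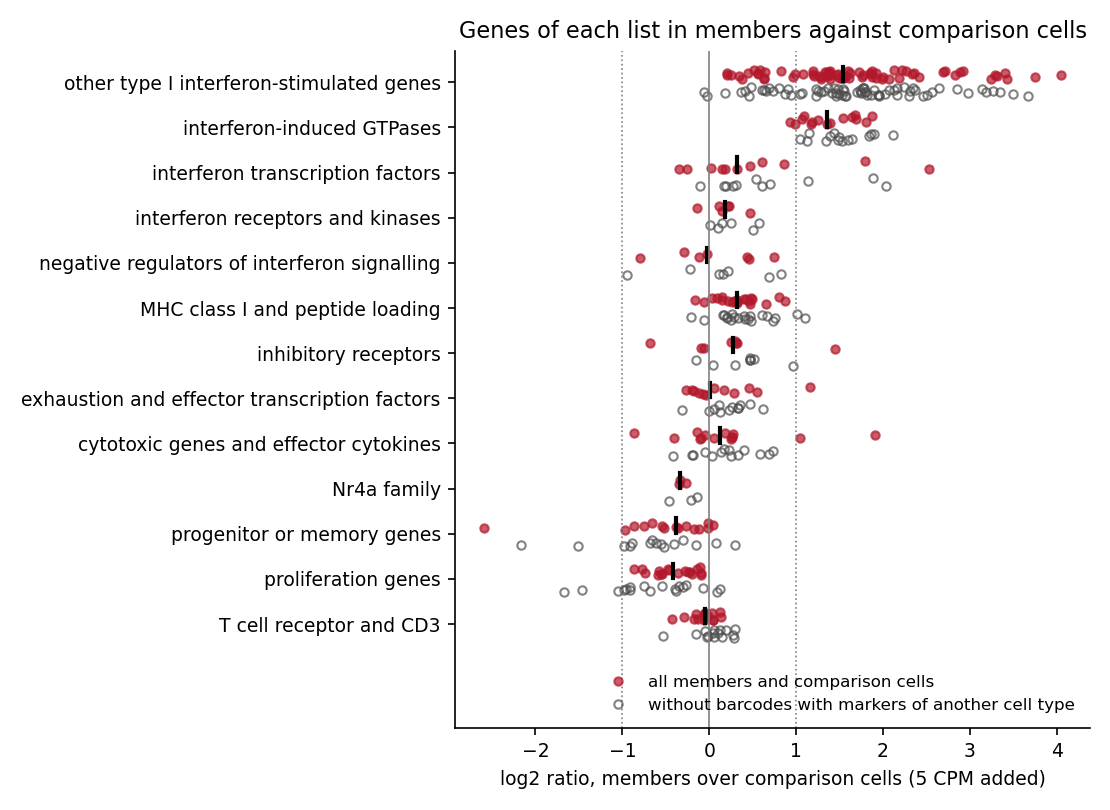
Log2 ratio of members over comparison cells (x axis, CPM with 5 CPM added) for every tested gene of 13 lists (y axis). Red points use all cells and open grey points leave out barcodes with markers of another cell type, black bars give the median in all cells and dotted lines the 2-fold limits. The 72 other type I interferon-stimulated genes and 15 GTPases lie to the right of 0 in all cells, while progenitor and proliferation genes lie mostly to its left.

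The level of the other type I genes per cell went with the number of rule genes present. Its median was 7826 CPM in the 3115 cells with all 4 rule genes at 0, 9394 CPM in cells with counts below 5 only, 11079 CPM with 1 gene at 5 or more, 15795 CPM with 2, 20020 CPM with 3 and 35146 CPM with 4. The share of cells with Isg15 was 7.61%, 14.3%, 23.04%, 42.5%, 67.5% and 81.0% over the same steps, and the median sum of GTPases was 1210, 1524, 2153, 3138, 4457 and 5706 CPM. Members thus spanned a wide range, from 4531 to 68222 CPM. The median was 19097 CPM in members and 7826 CPM in comparison cells, and 137 of 141 members (97.2%) lay above the comparison median. Of the comparison cells, 78 of 3115 (2.50%) lay above the members' median. The median was 20000 CPM in members and 7889 CPM in comparison cells once barcodes holding markers of another cell type were left out, and Isg15 was then in 51.5% of members and 7.03% of comparison cells. The steps also differed in depth, with a median of 25768 counts per cell at the first step, 48639 with 3 genes and 31685 with 4. The steps were not computed again after thinning, so the part of depth in them was not tested.

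**Figure D3:**
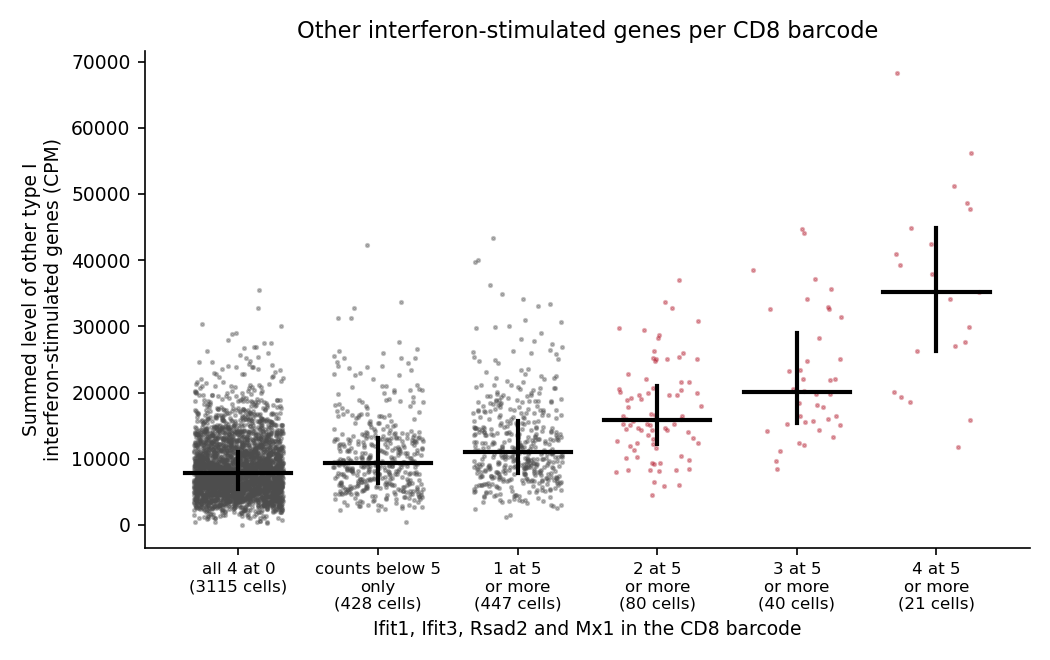
Summed level of the other type I interferon-stimulated genes in each CD8 barcode (y axis, CPM) by the counts of the 4 rule genes (x axis, low to high), with members in red. Horizontal bars give medians and vertical bars the quartiles; the median was 7826 CPM with all 4 genes at 0 and 35146 CPM with all 4 at 5 or more.

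Promoter windows of the higher genes held the response element core more often than others. Over all RefSeq symbols with a window of 250 bases before to 50 after the start, 1079 of 27025 (3.99%) held it. Among genes called higher, rule genes left out, 27 of the 68 with a window did (39.7%), against 213 of 5113 tested genes not called higher (4.17%). It stood in 32 of 66 other type I genes (48.5%), all 10 GTPases with a window, 5 of 19 class I genes, and 0 of 14 progenitor genes. Within the type I list, 16 of 32 genes called higher and 11 of 24 tested but not called held it. The core of the gamma-activated site, TTC, 3 bases of any kind and GAA, was in 9.55% of all windows and in 6 of 10 GTPases.

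Outside the interferon lists, 36 genes were called higher. LOC102639543 had 188 CPM in members and 25.3 CPM in comparison cells, a log2 ratio of 2.67. Cd274, which encodes the inhibitory ligand PD-L1, had 0 to 76 counts per member (median 3) and 0 to 63 per comparison cell (median 0). It was in 41.1% of members and 15.8% of comparison cells, at 179 CPM in members and 62.2 CPM in comparison cells (log2 ratio 1.45). Without barcodes holding markers of another cell type its log2 ratio was 0.96, and its shares were 32.0% of members and 14.9% of comparison cells. Others, named after their values were seen, are known for interferon or antiviral roles, such as Rnf213 (2.04), Samd9l (1.64), Trafd1 (1.77), Ifi47 (1.43) and Trex1 (1.38), a DNA exonuclease. A second set, also named after its values were seen, had lower ratios once barcodes with markers of another cell type were left out. Lgals3, a galectin abundant in macrophages, had a log2 ratio of 1.67 in all cells and 0.49 without them, and Npc2, a lysosomal sterol carrier, 1.29 and 0.65. Cd86, a costimulatory ligand of antigen-presenting cells, had 1.92 and 1.14. The ferritin light chain Ftl1 had 1.00 and -0.51.

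The 22 genes called lower included none on an interferon list, and 11 of them were at 5 or more counts in at least 10% of comparison cells. Prps1, a synthase of the nucleotide precursor PRPP, had 15.2 CPM in members and 46.0 CPM in comparison cells, a log2 ratio of -1.33. Eef1e1, a cofactor of the tRNA synthetase complex, had a ratio of -1.21, and Ahcy, which clears S-adenosylhomocysteine, -1.10. Lsm2 (-1.06), a subunit of the RNA-binding Lsm ring, Suv39h1 (-1.07), a histone methyltransferase, Ppil1 (-1.13), Lpgat1 (-1.09), Ppp1r14b (-1.07), Nrn1 (-1.04), Srebf2 (-1.04) and Phf10 (-1.02) completed them. Each was sparse in members, with shares of cells between 4.96% for Prps1 and 14.9% for Nrn1. The number of lower genes changed with most processing choices, and without barcodes holding markers of another cell type it was 117 of 5980 (1.96%).

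Genes of the CD8 states that the study concerns gave few calls. Over all tested genes, 1.4% were called higher, 0.331% lower and 43.1% had a ratio above 0. In lists of 3 to 18 genes, 0 called is near these shares and says little about the lists. Without barcodes holding markers of another cell type, 1.96% of all genes were called lower and 47.6% were above 0. The 3 Nr4a genes, nuclear receptors induced by T cell receptor signalling, were 0 of 3 called. The series title names Nr4a1 and Nr4a2, and not Nr4a3, as deleted. Nr4a1 had 192 CPM in members and 245 CPM in comparison cells (-0.34), Nr4a2 1236 CPM in members and 1489 CPM in comparison cells (-0.27), and Nr4a3 182 CPM in members and 230 CPM in comparison cells (-0.33). Since KO and WT cells are mixed in both arms, these levels are averages over an unknown mixture. Of 15 progenitor or memory genes tested 0 were called, 1 had a ratio above 0 and the median was -0.38. Tcf7, which encodes TCF1, was in 16.3% of members (interval 10.6 to 23.5%) and 18.4% of comparison cells (17.0 to 19.8%), at 55.8 CPM in members and 106 CPM in comparison cells (-0.87). Xcl1, a chemokine of precursors that attracts cross-presenting dendritic cells, had 19.996 CPM in members and 145 CPM in comparison cells (-2.59), with 18.9% of the comparison counts in 1 cell, and was called lower without barcodes holding markers of another cell type (-2.17). Klf2, a regulator of recirculation, was at -0.18 in all cells and -1.51, called lower, without them. Of 8 inhibitory receptors and ligands tested, 1 was called higher, Cd274 as above (1.45), and 0 without barcodes holding markers of another cell type; the median was 0.27. Cd160 was the lowest at -0.68, Pdcd1 stood at -0.06, Lag3 at -0.10, Ctla4 at 0.30 and Havcr2, encoding TIM-3, at 0.31. Of 12 exhaustion and effector transcription factors tested 0 were called, with Tox at -0.17. The 14 cytotoxic and cytokine genes tested had 0 called, with Gzmb, encoding granzyme B, at 2525 CPM in members and 2111 CPM in comparison cells (0.26). Tnf (1.91) and Ccl4 (1.05) exceeded 2-fold with over 10% of counts in 1 cell, and without barcodes holding markers of another cell type they stood at -0.04 and 0.34. Among 18 proliferation genes 0 were called and 0 were above 0 (median -0.41), and without those barcodes Top2a (-1.47), Ccna2 (-1.05) and Rrm2 (-1.67) were called lower.

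Shares of cells with these genes moved with depth. At equal depth, 134 members and 2858 comparison cells thinned to 10000 counts, Tcf7 was in 7.46% of members (interval 3.64 to 13.3%) and 12.4% of comparison cells (11.2 to 13.7%), and in 1.10% of melanoma barcodes without Cd8a, Cd8b1 or Cd4. Pdcd1 was in 24.6% of members and 23.2% of comparison cells, and 0.200% of those melanoma barcodes. Havcr2 was in 39.7% of members and 27.9% of comparison cells before thinning, and in 14.2% of members and 12.0% of comparison cells after it, and in 3.02% of the melanoma barcodes before thinning and 0 of 1001 after it, which allows up to 0.368%. Gzmb was in 72.4% of thinned members (64.0 to 79.8%) and 57.0% of thinned comparison cells (55.1 to 58.8%), and in 1.30% of the melanoma barcodes. Mki67, a marker of cycling cells, was in 9.70% of thinned members (5.27 to 16.0%) and 15.6% of thinned comparison cells (14.3 to 17.0%). Cd274 was in 18.7% of thinned members (12.5 to 26.3%) and 5.88% of thinned comparison cells (5.04 to 6.80%). The intervals of Gzmb and Cd274 did not overlap between the arms, and those of Tcf7, Pdcd1, Havcr2 and Mki67 did. How often intervals failed to overlap over all tested genes was not computed, so this does not set Gzmb or Cd274 apart. Before thinning and without barcodes holding markers of another cell type, Gzmb was in 80.4% of members and 62.1% of comparison cells, Havcr2 in 38.1% of members and 26.1% of comparison cells, Tcf7 in 14.4% of members and 19.2% of comparison cells, and Mki67 in 19.6% of members and 24.1% of comparison cells. The intervals cover counting error only, since reads of 1 molecule and cells of 1 mouse are not independent.

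**Figure D4:**
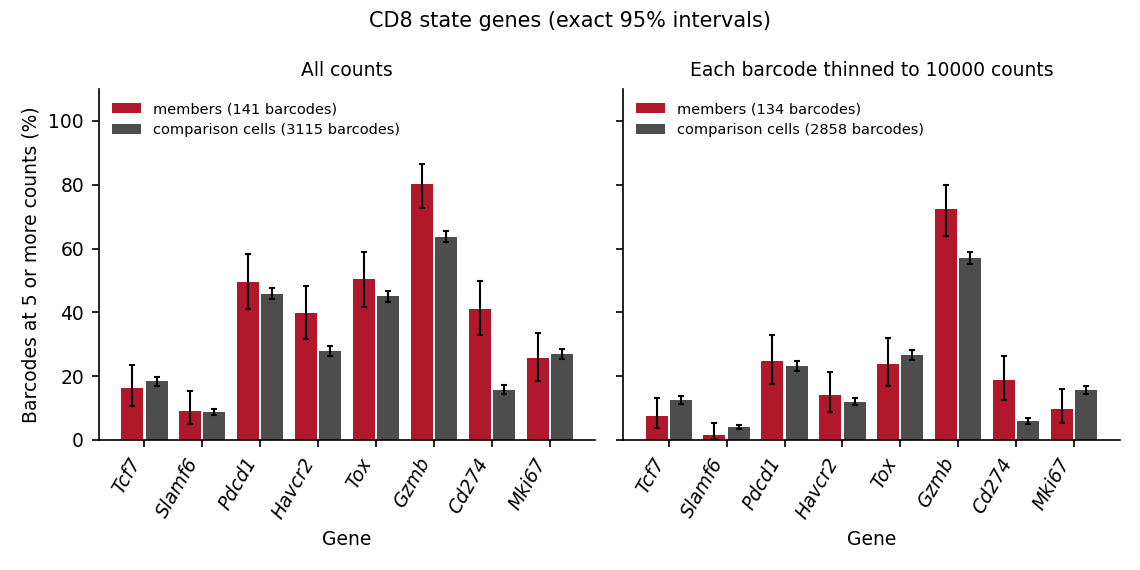
Share of barcodes at 5 or more counts of 8 CD8 state genes (y axis, percent) in members (red, left) and comparison cells (grey, right), with exact 95% intervals, from all counts and after thinning each barcode to 10000 counts. After thinning, Gzmb was in 72.4% of members and 57.0% of comparison cells, and Cd274 in 18.7% of members and 5.88% of comparison cells.

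Members were found in every CD8 state examined. They were 19 of 705 cells with Tcf7 and without Havcr2 (2.70%, interval 1.63 to 4.18%), 52 of 1188 with Havcr2 and without Tcf7 (4.38%, 3.29 to 5.70%), 4 of 33 with both (12.1%, 3.40 to 28.2%) and 66 of 2205 with neither (2.99%, 2.32 to 3.79%). The cells with both had a median of 68664 counts. Of cells with Tcf7 and Pdcd1, the combination used for precursors of exhausted cells, 4 of 172 were members (2.33%, 0.637 to 5.85%). The Havcr2 cells were also deeper, with a median of 44225 counts against 23512 in the Tcf7 cells. Cells with Mki67 or Top2a were members in 3.19% of 1473 and cells with neither in 3.54% of 2658. The median level of the other type I genes in members was 20461 CPM in Tcf7 cells and 18512 CPM in Havcr2 cells, against 7808 CPM in comparison cells with Tcf7 and 7557 CPM in those with Havcr2.

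Of the 141 members, 64 (45.4%) could be called for 1 of the 6 hashtags, as could 45.3% of comparison cells. The share of members among CD8 barcodes was 3.10% (21 of 678) for A0301, 5.88% (7 of 119) for A0302, 3.82% (6 of 157) for A0303, 6.82% (18 of 264) for A0304, 1.59% (4 of 251) for A0305 and 2.01% (8 of 398) for A0306. A0304 was the highest and A0305 the lowest, and the intervals, 4.09 to 10.6% and 0.436 to 4.03%, did not overlap. These 2 were picked as the extremes of the 6, and the intervals treat cells as independent. A Dixon outlier check flagged neither end (gap over range 0.179 and 0.0797, critical value 0.625). Hashtag calls rested on few counts, with a median of 12 per barcode of the mRNA table. Members with markers of another cell type were 9, 6, 4, 8, 0 and 0 of these in the order of the hashtags. Without such barcodes the shares were 2.23%, 1.04%, 1.56%, 4.78%, 1.83% and 2.56% in the same order, and the intervals of all 6 overlapped. The log2 ratio of the summed type I genes, members over comparison cells of the same hashtag, lay between 1.03 for A0304 and 1.73 for A0301, and between 54 and 72 of the 72 tested genes were above 0. Uncalled barcodes held 77 members of 2264 (3.40%).

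**Figure D5:**
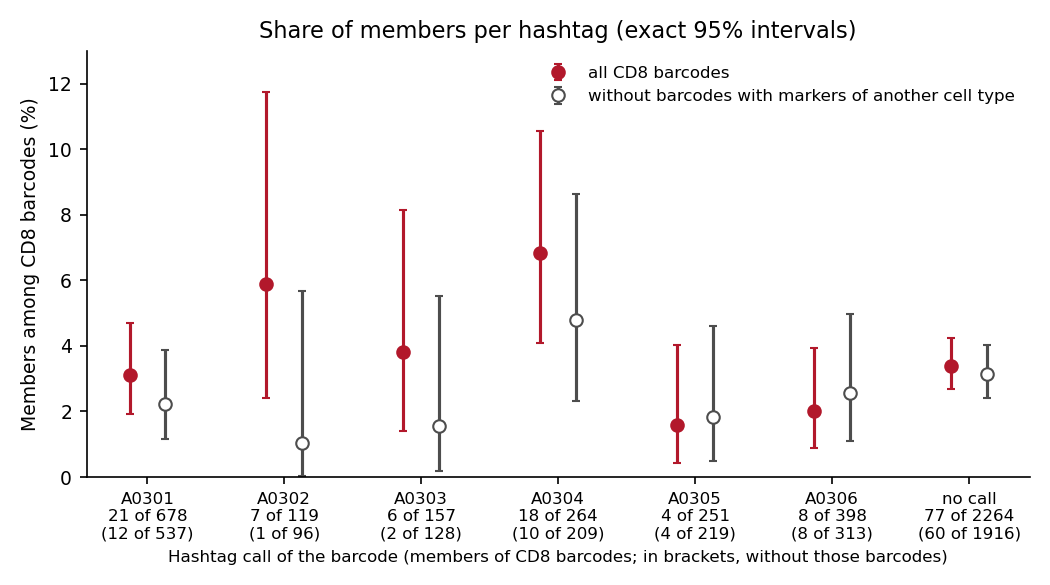
Share of members among CD8 barcodes (y axis, percent, exact 95% intervals) for each hashtag call (x axis), from all CD8 barcodes in red and without barcodes holding markers of another cell type in grey. A0304 is highest in both, at 6.82% of all CD8 barcodes and 4.78% without those barcodes, and A0302 is at 5.88% and 1.04%.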

How the data were processed

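The deposited mRNA table holds whole-number counts of 27635 genes in 12016 barcodes (629041564 in all, 4138 to 892142 per barcode), and the deposited hashtag table counts of hashtags per barcode; 11808 barcodes were in both. Cells were captured on BD Rhapsody beads and amplified by TAS-Seq, per the labels' protocols. The build was GRCm38, and the tools named are R 3.5.3, cutadapt 2.10 and Bowtie2 in versions 2.3.4.1 and 2.4.2, per the submitters' processing notes, with no role stated. A collapse of reads by molecular identifier is not described there or in the labels. With a median non-zero count of 7 and 56.1% of non-zero counts above 5, the deposited counts were taken as reads, and presence was scored at 5.

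Genes were tested where the share of cells at 5 or more counts, averaged over both arms, was at least 5%. Thinning drew 10000 counts per cell without replacement. A barcode with at least 2 markers of any of 8 lists of other cell types was left out in the alternative. Doublets were not removed: Scrublet through scanpy 1.11.5 marked 1 barcode at its automatic threshold, and removing the highest scores (677 barcodes, 8 members) was an alternative. A barcode was called for a hashtag when that hashtag raised the log likelihood over the background mixture by at least 3 and by 3 more than any other. Computing used Python 3.11.15, numpy 2.4.6, scipy 1.17.1, pandas 2.3.3 and matplotlib 3.10.9, and the ratio was tested on simulated data. The members, gene lists and limits were chosen with earlier results of these data known. Genes of the interferon lists could be named, then the 15 highest and 15 lowest called genes at 5 or more counts in 10% of the higher arm (11 of the lower ones met this), called genes of other lists and up to 4 examples of each. Alternatives changed the number of rule genes, their minimum, the markers of other cell types, thinning, depth weighting, cycling cells, the pseudocount, the filter, the fold and each hashtag; 3 were added after seeing the data.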

Additional observations from a re-analysis of the deposited data

How the results depend on the processing

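With 1 capture and 141 members, precision is set by the few cells and by single cells that hold many reads of a gene. Of 72 other type I genes, 69 stayed above 0 and 46 stayed at a log2 ratio of 1 or more in each of 24 alternatives; the exceptions below 0 included Trim12a and Trim34a. The share of members was 1.48% with 3 rule genes required, 2.20% at 10 counts, 2.84% without barcodes holding markers of another cell type and, chosen after seeing the data, 6.20% at 1 count. Genes called higher were 49 with 3 rule genes, 56 without cycling cells, 201 at 1.5-fold and, also chosen after seeing the data, 217 whatever the share of 1 cell. Type I genes called higher were 20 with 3 rule genes, 24 without barcodes holding other markers and 27 without cycling cells. Genes called lower, 22 in the report, were 181 with 3 rule genes, 119 at 10 counts, 117 without barcodes holding other markers, 4 after thinning, 58 with depth weighting, 86 without cycling cells, 67 from mean CPM per cell, 68 with a pseudocount of 1 CPM, 0 with 20 CPM, 108 with no filter, 377 at 1.5-fold and 2 with rule genes at 1 count. Leaving out the cells of each hashtag in turn gave 25 to 45 genes lower (45 without A0301, 43 without A0302, 40 without A0304), 67 to 93 higher, 32 to 44 type I genes higher and a share of 3.18 to 3.56%. Tcf7 was in 9.84% of members with 3 rule genes and 7.46% after thinning, Pdcd1 in 24.6% after thinning and 38.3% without cycling cells, Havcr2 in 14.2% and Mki67 in 9.70% after thinning; Mki67 is 0 without cycling cells by construction. Of 195 genes followed, 3 changed sign: Ftl1 (-0.51) and LOC100862446 (-0.24) without barcodes holding other markers, and Eef1e1 (0.16) with rule genes at 1 count. Beyond fewer members or fewer genes tested, the causes were not tested. No paired analysis was possible because the 2 samples are libraries of the same capture and hashtags carry no genotype.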

Other observations

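The median log2 ratio over all tested genes was -0.06, and 4 further gene groups are given beside it. By comparison, 1.4% of all tested genes were called higher, 0.331% lower and 43.1% were above 0. Of 10 genes of residency and homing tested 0 were called (median 0.21). Ccr2, which guides monocytes and T cells to inflamed tissue, had 164 CPM in members and 92.1 CPM in comparison cells (log2 ratio 0.80, and 0.54 without barcodes holding markers of another cell type). Of 14 activation-induced genes tested 0 were called (median 0.15), and the immediate early genes Fos (1.03, with 12.8% of counts in 1 cell) and Dusp1 (0.91) were at 0.08 and 0.03 without those barcodes. The 10 cytosolic ribosomal protein genes, 0 called, were all below 0 (median -0.18), from Rps2 at -0.37 to Rps27 at -0.06. Among 14 glycolysis and hypoxia genes 0 were called (median 0.14), with Ldha at -0.20 and Bnip3 at 0.68.

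Foxp3, the factor of regulatory T cells, was at 5 or more counts in 4.96% of members (interval 2.02 to 9.96%) and 1.80% of comparison cells (1.36 to 2.33%), although the gate asked for Cd4 below 5. After thinning it was in 2.24% of members (0.464 to 6.40%) and 0.875% of comparison cells (0.567 to 1.29%), and the intervals overlapped in both settings.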
